A study of Mus musculus with 12 samples.

Results

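The subject here is the transcriptome of Taf4 mutant islets 3 weeks after the gene was inactivated, set against wild-type islets. The samples were taken by their labels, not by any measured value, and comprise 3 mutant and 3 wild-type libraries of the 12 samples in the series. Bulk RNA-seq gave counts for 34820 annotated genes, of which 20180 had enough counts to be tested. All animals were of the C57/Bl6 strain and carried a tamoxifen-inducible Cre recombinase driven by the Ins1 promoter (Ins1::Cre-ERT2), and all received tamoxifen at 11 to 13 weeks of age on 3 consecutive days. Mutant animals carried floxed alleles of Taf4 (Taf4 lox/lox), so that the gene is removed in beta cells, while the wild type carried intact Taf4 (Taf4 +/+). The mutant islets were labelled as 3 weeks, and the label of the wild type gives no time. Each replicate held the islets of 2 mice, kept in culture for 24 h before RNA extraction, so the p-values measure the spread between pools of animals. The driver acts in cells that express Ins1, and alpha, delta, vascular and other cells of the islet keep Taf4. In bulk RNA, fewer cells of a type and less RNA per cell cannot be told apart.

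The protein made by Taf4 belongs to TFIID, a large complex that recognises core promoters and brings in RNA polymerase II. With Taf12 it forms a histone-fold pair inside the complex. Islets of Langerhans hold beta cells, which take up glucose, raise their ATP, close potassium channels and release insulin, and alpha, delta and PP cells, which release glucagon, somatostatin and pancreatic polypeptide. Islets lie within exocrine tissue, whose acinar cells make digestive enzymes in very large amounts, and isolated islets can carry acinar RNA. Mice have a pair of insulin genes, Ins1 and Ins2, which both encode insulin.

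The share of acinar RNA differed between the groups. Transcripts of 40 acinar marker genes took 55.04%, 30.79% and 50.34% of the counts of wild-type replicates 1, 2 and 3, and 3.669%, 4.959% and 3.794% of those of mutant replicates 1, 2 and 3. The groups did not overlap, and the mean share was 45.4% ± 12.9 (SD, n = 3) in wild type and 4.14% ± 0.711 (SD, n = 3) in the mutant (exact permutation test, two-sided p = 0.1, the smallest that 3 against 3 samples allow). Wild-type replicate 2 carried the least acinar RNA of its group. Sex-linked transcripts differed as well: Xist, the RNA of the silenced X chromosome, stood at 36.3, 8.66 and 29.8 CPM in wild type and 1664, 1721 and 1590 CPM in the mutant, and the Y-linked genes Ddx3y, Eif2s3y, Kdm5d and Uty held 1599, 2254 and 1635 counts in total in the wild type and no count in any mutant library. Sex, as these genes show it, and genotype therefore cannot be told apart here. Total counts were 13865518 to 18019366 in wild type and 16597354 to 20109433 in the mutant. Library sizes were scaled by TMM, a trimmed mean of log ratios between libraries, whose factors were 0.61 to 1.02 in wild type and 1.156 to 1.228 in the mutant. Scaling by library totals alone moved the median log2 fold change of all genes from -0.05 to 0.61, and scaling by 12 pan-endocrine genes moved it to -0.27, so counts of genes that rose or fell move with the scaling, and a change is to be read against that median.

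**Figure D1:**
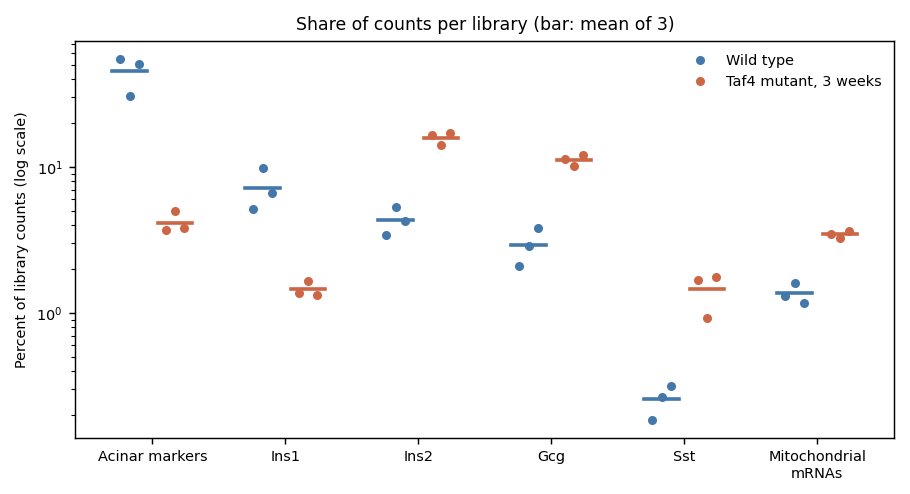
Percent of the counts of each library (vertical axis, log scale) taken by acinar markers, Ins1, Ins2, Gcg, Sst and mitochondrially encoded mRNAs, with 1 point per library and a bar at the group mean. Acinar markers took 30.79% to 55.04% of wild-type counts and 3.669% to 4.959% of mutant counts, and Ins2 took 3.403% to 5.331% against 14.02% to 17.05%.

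Of the 20180 genes tested, 317 were higher in the mutant islets (1.57%) and 1020 were lower (5.05%) at an edgeR adjusted p below 0.05 and a log2 fold change beyond 1 in size. On the adjusted p alone, 1719 genes rose (8.52%) and 1584 fell (7.85%), and these are the words used for single genes below. Values per library are CPM (counts per 1000000 counts of the TMM-scaled library) in the order of replicates 1, 2 and 3. Values after ± are standard errors of the log2 fold change unless SD is stated. The groups did not overlap for 8093 of the 20180 genes, with the mutant above in 4172 and below in 3921. These included all 317 higher genes, 1001 of the 1020 lower genes and 6775 of the 18843 genes not past both thresholds. A lack of overlap therefore adds little to a call. Of the genes past both thresholds, 485 of the 1020 lower genes (47.5%) had their wild-type replicate 2, the one with the least acinar RNA, below 0.8 of both other wild-type replicates, against 10.4% of the higher genes and 12.5% of all genes tested. Of the 317 higher genes, 69.4% were annotated as protein coding and 15.8% as long intergenic RNA, against 90.9% and 1.37% of the lower genes and 83.8% and 4.57% of all genes. A fit that held the log2 acinar share of each library as a covariate called 401 genes higher and 240 lower, of which 112 and 115 were among the 317 and 1020. On the adjusted p alone that fit left 445 genes that rose and 262 that fell. It used all 11 libraries, so mutant libraries of 1 and 5 weeks, outside this comparison, also set the adjustment. The acinar share was 0.2348% and 0.03396% in the 5-week libraries, and it varied little among the mutant libraries of 3 weeks. How far the adjustment rests on libraries outside the comparison was not tested. Below, where a bracket follows the number of members of a list that rose or fell under this covariate or another scaling, it holds the number at an unadjusted p below 0.05 in that edgeR fit. Counts of list members in the main fit are to be read against the shares of all genes that rose (8.52%) and fell (7.85%).

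**Figure D2:**
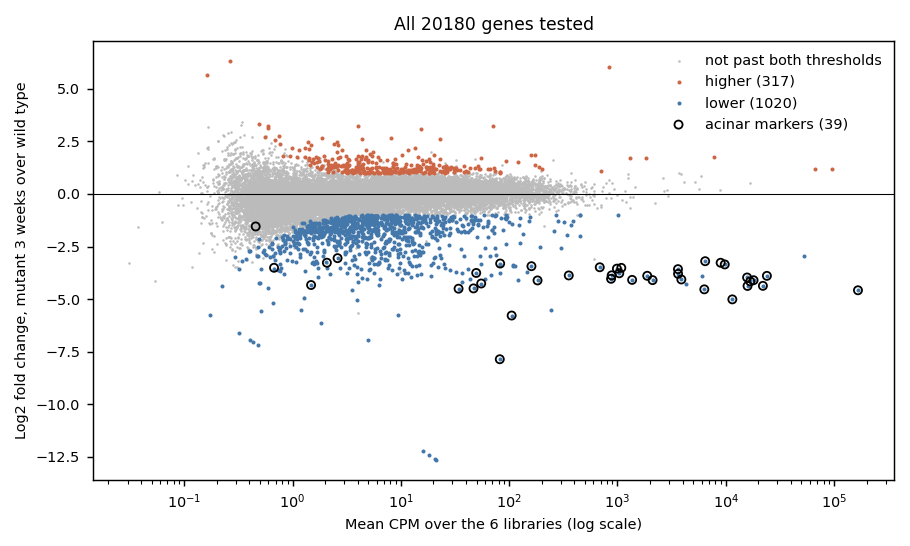
Log2 fold change of mutant islets at 3 weeks over wild type (vertical axis) against mean CPM over the 6 libraries (horizontal axis, log scale) for the 20180 genes tested. Grey points did not pass both thresholds, coloured points are the 317 higher and 1020 lower genes, and the acinar markers, drawn apart, have a median log2 fold change of -3.89.

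Taf4 itself, listed in the file as Taf4a (ENSMUSG00000039117, chromosome 2, 179646851 to 179711351, minus strand, NCBIM37), was at 29.7, 22.9 and 29.8 CPM in wild type and 27.3, 26.2 and 25.9 CPM in the mutant. The groups overlapped, and the log2 fold change was -0.05 ± 0.16 (edgeR adjusted p = 0.872), or 0.65 (adjusted p = 0.0353) with library totals alone, where the median of all genes was 0.61. Gene counts include every annotated exon, the deleted part is not given in the sources used here, and other islet cells keep the gene, so this count does not check the deletion. Taf12, the histone-fold partner of Taf4, stood at 11.8, 12.8 and 12.9 CPM in wild type and 19.8, 20.1 and 22 CPM in the mutant. Taf12 rose (log2 fold change 0.72 ± 0.17 with an edgeR adjusted p = 0.00474). Every mutant library was above every wild-type library. Taf4b, the gonad-enriched paralogue of Taf4, was low at 7.74, 5.89 and 3.88 CPM in wild type and 9.47, 5.47 and 10.01 CPM in the mutant (0.51 ± 0.27 on the log2 scale, edgeR adjusted p = 0.209).

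The insulin genes went in opposite directions. Ins1 (ENSMUSG00000035804, chromosome 19, 52338813 to 52339946, plus strand) was at 78730, 97370 and 107100 CPM in wild type and 11370, 13450 and 11490 CPM in the mutant. Ins1 fell (log2 fold change -2.96 ± 0.27 with an edgeR adjusted p = 6.04e-07), with no overlap between the groups. Ins2 (ENSMUSG00000000215, chromosome 7, 149864561 to 149885415, minus strand) was at 52220, 52500 and 69530 CPM in wild type and 135900, 114200 and 147500 CPM in the mutant. Ins2 rose (log2 fold change 1.19 ± 0.26 with an edgeR adjusted p = 0.00363), again with no overlap. The ratio of Ins2 to Ins1 counts, which needs no scaling between libraries, was 0.663, 0.539 and 0.649 in wild type and 12.0, 8.49 and 12.8 in the mutant. Ins1 and Ins2 together held 130900, 149900 and 176700 CPM in wild type and 147200, 127600 and 159000 CPM in the mutant, and these ranges overlapped (means 152500 ± 23000 and 144600 ± 15900, SD, n = 3, exact permutation test, two-sided p = 0.6). Only reads that align to 1 place were counted, so reads shared by the pair of insulin genes were lost in every library. The change is shown beside the upstream sequences of both genes because these are near copies: over 150 bases before the annotated start of Ins1 and the aligned stretch of Ins2, which lies 259 to 109 bases before the start of its first-numbered transcript, 138 of 151 aligned positions were the same (91.4%). Capitals mark the letters CATCTG, an E box of the kind bound by NeuroD1 and its partners. A search on both strands found it in this stretch of Ins1 and not in that of Ins2. The bases between this stretch and the start of Ins2 are not shown. By the alignment, the annotated start of Ins1 lies next to the place that matches 109 bases before the start of Ins2. The Ins1 bases that match the unshown Ins2 bases would lie past that annotated start and are not shown either. The letters therefore do not describe the whole promoter of either gene, and the difference in CATCTG holds for this stretch alone.
Ins1: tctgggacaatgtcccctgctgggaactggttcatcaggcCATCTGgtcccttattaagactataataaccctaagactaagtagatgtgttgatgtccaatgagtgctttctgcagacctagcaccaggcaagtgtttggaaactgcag
Ins2: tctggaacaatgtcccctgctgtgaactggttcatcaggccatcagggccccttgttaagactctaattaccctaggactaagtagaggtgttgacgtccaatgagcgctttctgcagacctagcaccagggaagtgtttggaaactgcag
The Ins1 stretch is chr19:52338663-52338812 on the plus strand and the Ins2 stretch is chr7:149865740-149865890 on the minus strand of NCBIM37, both written 5′ to 3′ in the direction of the gene.

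**Figure D3:**
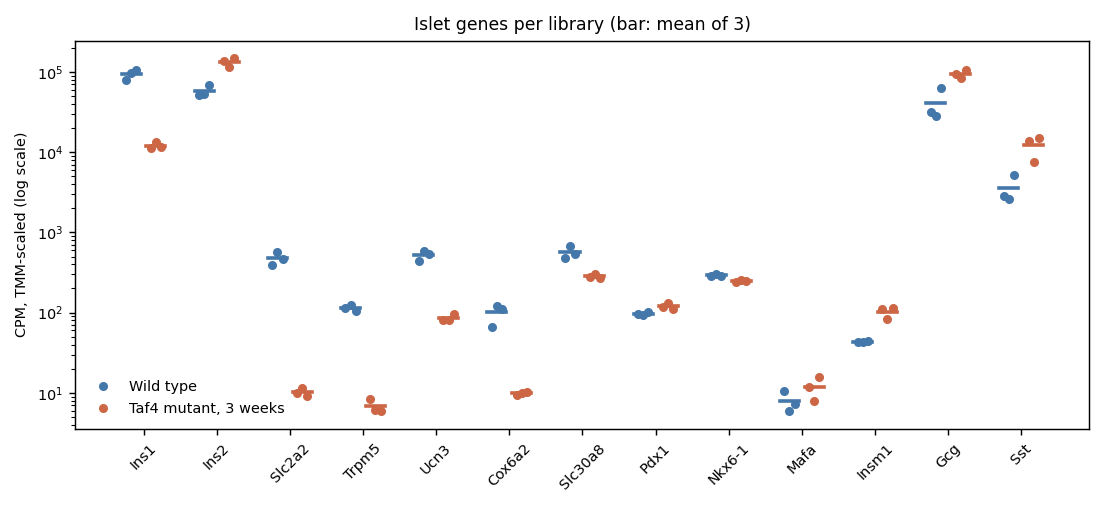
CPM per library (vertical axis, log scale) of 13 islet genes in wild type and Taf4 mutant islets at 3 weeks, with 3 points per group and a bar at the mean. Ins1, Slc2a2, Trpm5, Ucn3 and Cox6a2 lie lower in every mutant library, Ins2, Gcg and Sst lie higher in every mutant library, and Mafa overlaps between the groups.

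A gene of glucose uptake was among the largest losses, while most genes of glucose sensing did not pass the test. Slc2a2 (ENSMUSG00000027690, chromosome 3, 28596825 to 28627278, plus strand), which encodes the glucose transporter GLUT2, was at 389.6, 572 and 463 CPM in wild type and 9.94, 11.7 and 9.12 CPM in the mutant. Slc2a2 fell (log2 fold change -5.53 ± 0.59 with an edgeR adjusted p = 0.000954). The mean of the mutant was 46.4-fold below that of wild type, and with the acinar share as a covariate the log2 fold change was -6.27 (edgeR adjusted p = 0.0323). G6pc2, the islet glucose-6-phosphatase, stood at 1052, 1617 and 1367 CPM in wild type and 611, 729 and 667 CPM in the mutant. G6pc2 fell (log2 fold change -1.01 ± 0.19 with an edgeR adjusted p = 0.00105). Every mutant value of G6pc2 lay below every wild-type value. Of 12 genes of glucose sensing and metabolic coupling, 3 fell (Slc2a2, G6pc2 and the citrate carrier Slc25a1, -0.66 ± 0.17) and 1 rose (Abcc8, the sulphonylurea receptor subunit of the KATP channel, 0.54 ± 0.14). With library totals alone, 6 of the 12 rose and 1 fell, and with pan-endocrine scaling 5 fell. In this list 1 (1) rose and 1 (3) fell under the acinar covariate. The promoter of Slc2a2 is shown as that of the glucose entry gene with the largest loss. Its last 150 bases, at chr3:28596675-28596824 on the plus strand of NCBIM37, hold none of the letters searched. These were the TATA box TATAAA on the gene's own strand, and the E box CATCTG and the Maf core TGCTGA, both with their reverse complements.
Slc2a2: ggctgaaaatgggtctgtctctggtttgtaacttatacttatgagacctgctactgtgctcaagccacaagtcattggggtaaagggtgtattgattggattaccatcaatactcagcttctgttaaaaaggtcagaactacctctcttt

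Membrane channels and receptors of beta cells were affected unevenly. Trpm5 (ENSMUSG00000009246, chromosome 7, 150255058 to 150280547, minus strand), a monovalent cation channel opened by calcium in beta cells and taste cells, was at 114, 124 and 105 CPM in wild type and 8.33, 6.15 and 5.94 CPM in the mutant. Trpm5 fell (log2 fold change -4.06 ± 0.22 with an edgeR adjusted p = 4.61e-11), while its relative Trpm4 was at 11.1, 13.2 and 10.8 CPM in wild type and 9.31, 11.9 and 9.28 CPM in the mutant (-0.21 ± 0.22, edgeR adjusted p = 0.558). Kcnk16, a background potassium channel of islets, stood at 69.3, 70.2 and 55.1 CPM in wild type and 17.3, 19.8 and 17.8 CPM in the mutant. Kcnk16 fell (log2 fold change -1.83 ± 0.20 with an edgeR adjusted p = 7.97e-06). All 3 mutant values of Trpm5 and of Kcnk16 lay below all wild-type values. Of 22 beta cell ion channel genes, 6 fell and 3 rose (median log2 fold change -0.13), but with library totals alone 9 rose and 2 fell. The others that fell by the largest amounts were Kcnq1 (-1.54 ± 0.30) and the inositol trisphosphate receptor gene Itpr3 (-0.69 ± 0.17). Among the channel genes 0 (1) rose and 4 (8) fell with the acinar covariate.

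Receptors for nutrients and hormones included Ffar1, the free fatty acid receptor, at 7.84, 5.68 and 8.31 CPM in wild type and 1.56, 1.98 and 1.09 CPM in the mutant, which fell (log2 fold change -2.21 ± 0.35 with an edgeR adjusted p = 0.000204). Gipr, the receptor for the incretin GIP, was at 23.8, 35.9 and 28.7 CPM in wild type and 13.7, 14.3 and 8.92 CPM in the mutant. Gipr fell (log2 fold change -1.26 ± 0.23 with an edgeR adjusted p = 0.000673), while Glp1r, the receptor for GLP-1, was at 388, 396 and 379.9 CPM in wild type and 418, 405 and 443 CPM in the mutant (0.12 ± 0.14, edgeR adjusted p = 0.609). The mutant values of Gipr and Ffar1 lay below all wild-type values, with wild-type replicate 2 the lowest of its group for Ffar1, and Glp1r was higher in every mutant library without passing the test. Prlr, the prolactin receptor, fell (log2 fold change -1.02 ± 0.13 with an edgeR adjusted p = 1.33e-05), and Galr1, a receptor for the neuropeptide galanin, rose from 19.7, 18.7 and 17.8 CPM to 44.2, 42.2 and 45.2 CPM (log2 fold change 1.23 ± 0.17 with an edgeR adjusted p = 6.08e-05). In all, 5 of 17 receptor genes fell and 1 rose, and with library totals alone 3 rose and 2 fell. The acinar covariate left the receptor genes with 0 (2) that rose and 4 (7) that fell.

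Peptides of the secretory granule changed in both directions. Ucn3, urocortin 3, a peptide that beta cells release to act on delta cells, was at 434, 579.8 and 538 CPM in wild type and 81.5, 81.4 and 95.9 CPM in the mutant. Ucn3 fell (log2 fold change -2.58 ± 0.28 with an edgeR adjusted p = 0.000174). Slc30a8, the zinc transporter that loads insulin granules, was at 479, 683 and 536 CPM in wild type and 277, 300.2 and 273 CPM in the mutant. Slc30a8 fell (log2 fold change -1.0 ± 0.14 with an edgeR adjusted p = 4.65e-05). Cpe, carboxypeptidase E of prohormone processing, rose (log2 fold change 0.94 ± 0.16 with an edgeR adjusted p = 0.000444), as did the granin Scg3 (log2 fold change 0.78 ± 0.13 with an edgeR adjusted p = 0.000439), while Chga, chromogranin A, was at 2096, 2787 and 2763 CPM in wild type and 2591, 2732 and 3060 CPM in the mutant (0.13 ± 0.16, edgeR adjusted p = 0.634). Of 18 genes of islet hormones, granins and processing, 4 rose and 3 fell, with a median log2 fold change of 0.01. Among 18 genes of granule exocytosis, Rab3d, a small GTPase of secretory granules in many exocrine and endocrine cells, was at 112, 91.9 and 106 CPM in wild type and 24.7, 28.6 and 21.9 CPM in the mutant. Rab3d fell (log2 fold change -2.04 ± 0.14 with an edgeR adjusted p = 3.42e-09). Syt5 (-0.77 ± 0.15) and Cadps2 (-0.90 ± 0.18) fell, and Snap25, a membrane fusion SNARE, rose (log2 fold change 0.64 ± 0.12 with an edgeR adjusted p = 0.000673). The groups of Rab3d did not overlap. With library totals alone, 10 of these 18 genes rose and 1 fell. The covariate for acinar share gave 0 (1) that rose and 1 (6) that fell among the exocytosis genes and 1 (3) that rose and 3 (4) that fell among the hormone and granin genes.

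Of 16 transcription factors that define beta cells, 10 did not pass the test. Pdx1, a regulator of insulin genes and of Slc2a2, was at 95.6, 93.3 and 101 CPM in wild type and 116, 132 and 110.4 CPM in the mutant (0.31 ± 0.15, edgeR adjusted p = 0.188). Nkx6-1, a repressor of alpha cell genes in beta cells, was at 288, 306 and 287 CPM in wild type and 244, 253 and 248 CPM in the mutant (-0.24 ± 0.14, edgeR adjusted p = 0.277). Mafa, an activator of insulin transcription, was low in all libraries at 10.4, 5.97 and 7.32 CPM in wild type and 11.97, 7.86 and 15.6 CPM in the mutant (0.58 ± 0.28, edgeR adjusted p = 0.169). None of these passed the test, Pdx1 was slightly higher and Nkx6-1 slightly lower in every mutant library, and Mafa overlapped. With library totals alone, where the median of all genes was 0.61, Pdx1 stood at 0.98 (edgeR adjusted p = 0.000676) and Nkx6-1 at 0.40 (edgeR adjusted p = 0.202). With the acinar share as a covariate Nkx6-1 fell (-0.87, edgeR adjusted p = 0.0315) and the value for Pdx1 turned to -0.35. Of 16 beta cell factors, Insm1 (43.3, 43.4 and 44.4 CPM in wild type and 111, 82.5 and 113 CPM in the mutant, log2 fold change 1.23 ± 0.20 with an edgeR adjusted p = 0.000603) and Rfx6 (128, 122 and 128 CPM in wild type and 202, 192 and 228 CPM in the mutant, log2 fold change 0.72 ± 0.12 with an edgeR adjusted p = 0.000461), both needed for endocrine differentiation, rose, with 1 further factor. Myt1 (log2 fold change -0.70 ± 0.16 with an edgeR adjusted p = 0.00358) and Mlxipl, the glucose-responsive factor ChREBP (log2 fold change -0.62 ± 0.17 with an edgeR adjusted p = 0.0161), fell, with 1 further factor, so that 3 rose and 3 fell, and with library totals alone 10 of the 16 rose. The 3 wild-type values of Insm1 were nearly the same and all mutant values lay above them, yet with the acinar share as a covariate its log2 fold change was 0.15 (edgeR adjusted p = 0.808). Of the 16 factors, 1 (1) rose and 3 (4) fell under that covariate.

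Hormone transcripts of alpha and delta cells rose. Gcg (ENSMUSG00000000394, chromosome 2, 62312587 to 62321707, minus strand), the glucagon gene, was at 32010, 28090 and 62250 CPM in wild type and 93600, 82850 and 104700 CPM in the mutant. Gcg rose (log2 fold change 1.20 ± 0.26 with an edgeR adjusted p = 0.0029). Sst, somatostatin, was at 2849, 2600 and 5152 CPM in wild type and 13830, 7487 and 15180 CPM in the mutant. Sst rose (log2 fold change 1.78 ± 0.39 with an edgeR adjusted p = 0.0122). It missed the threshold once replicate 1 of the wild type was left out (1.66, edgeR adjusted p = 0.0551). Ppy, pancreatic polypeptide, was at 164, 190.2 and 403 CPM in wild type and 504, 504 and 486 CPM in the mutant (0.98 ± 0.45, edgeR adjusted p = 0.201) and did not pass the test. For all 3 hormones every mutant library was above every wild-type library, and wild-type replicate 3 was the highest of its group. Per count of Ins2, Gcg stood at 0.613, 0.535 and 0.895 in wild type and at 0.689, 0.726 and 0.710 in the mutant, so the Gcg to Ins2 ratio overlapped (exact permutation test, two-sided p = 0.9), while per count of both insulin genes it was 0.187 to 0.352 in wild type and 0.636 to 0.658 in the mutant. The last 150 bases of the Gcg promoter are shown, at chr2:62321708-62321857 on the minus strand of NCBIM37. Capitals mark TATAAA, the letters of a TATA box, 27 bases before the start. They also mark CAGATG, the reverse complement of CATCTG, 142 and 86 bases before the start. The Ins2 stretch above ends 109 bases before its start. The stretches therefore do not cover the same positions, and their letters cannot be compared.
Gcg: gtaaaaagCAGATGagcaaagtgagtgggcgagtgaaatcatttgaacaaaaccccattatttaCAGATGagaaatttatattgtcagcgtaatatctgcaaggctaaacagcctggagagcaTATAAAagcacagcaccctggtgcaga
Of 9 alpha cell genes tested 3 rose, 1 fell and 5 did not pass the test (median log2 fold change 0.19). Among those other than Gcg, Etv1, a transcription factor of the ETS family, rose (0.55 ± 0.18, edgeR adjusted p = 0.0424). The amino acid transporter Slc38a5 was at 48.04, 19.3 and 42.3 CPM in wild type and 12.9, 10.7 and 12.4 CPM in the mutant. Slc38a5 fell (log2 fold change -1.60 ± 0.25 with an edgeR adjusted p = 0.000371), and its wild-type replicate 2 was low, as for acinar transcripts. Of 5 delta cell genes, Sst and Rbp4, the retinol carrier, rose (0.94 ± 0.28, edgeR adjusted p = 0.0467) and Lepr fell (-1.37 ± 0.32, edgeR adjusted p = 0.00554), while Hhex, the delta cell factor, was at 18, 14.8 and 16.4 CPM in wild type and 14.2, 24.2 and 14.6 CPM in the mutant (0.11 ± 0.21). The acinar covariate gave 1 (3) that rose and 0 (0) that fell among the delta cell genes. Among the alpha cell genes it gave 3 (3) that rose and 0 (0) that fell.

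Markers of progenitors or of less differentiated cells fell or did not pass the test. Neurog3, the factor of endocrine progenitors, was near the limit of counting at 2.71, 1.85 and 3.07 CPM in wild type and 3.38, 4.09 and 3.54 CPM in the mutant (0.54 ± 0.31, edgeR adjusted p = 0.261). Aldh1a3, a retinaldehyde dehydrogenase used as a marker of dedifferentiated beta cells, was at 3.17, 5.26 and 12.6 CPM in wild type and 2.75, 1.7 and 0.626 CPM in the mutant. Aldh1a3 fell (log2 fold change -2.03 ± 0.50 with an edgeR adjusted p = 0.00873). Its wild-type libraries spread widely, and without wild-type replicate 3 it did not pass (-1.29, edgeR adjusted p = 0.102). Sox9, a factor of progenitors and ducts, fell from 27.9, 14.1 and 15.8 CPM to 2.16, 4.05 and 2.19 CPM (log2 fold change -2.77 ± 0.37 with an edgeR adjusted p = 8.2e-05), and Myc fell from 44.6, 33.5 and 26.2 CPM to 11.2, 9.43 and 9.02 CPM (log2 fold change -1.81 ± 0.41 with an edgeR adjusted p = 0.0166). Of 9 genes tested in this list 5 fell, and with library totals alone 3 fell and 2 rose. When the acinar share was held as covariate 0 (2) rose and 0 (2) fell in the same list. Of 22 genes that are normally silent in beta cells, 14 fell (median log2 fold change -1.39), and with library totals alone 9 fell. Ldha, lactate dehydrogenase A, was at 19.1, 10.2 and 22.6 CPM in wild type and 2.96, 4.33 and 5.32 CPM in the mutant. Ldha fell (log2 fold change -2.04 ± 0.40 with an edgeR adjusted p = 0.00351), and Tgm2 (-2.16 ± 0.34) and Zfp36l1 (-1.86 ± 0.25) fell too. Wild-type replicate 2 was the lowest of its group for Ldha, Tgm2 and Zfp36l1. Cxcl12, a chemokine of stromal cells, was at 13.3, 12 and 10.5 CPM in wild type and 1.99, 3.44 and 2.09 CPM in the mutant, with no such low value, and fell (log2 fold change -2.24 ± 0.27 with an edgeR adjusted p = 1.15e-05). With the acinar share as a covariate 1 of the 22 fell, Cxcl12 (-2.16, edgeR adjusted p = 0.0269).

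Acinar transcripts were among the largest losses. Of 39 acinar markers tested 34 fell, with a median log2 fold change of -3.89 against -0.05 for all genes. Ctrb1, the digestive protease chymotrypsinogen B and the most abundant transcript of the wild type, was at 411400, 128900 and 417100 CPM in wild type and 9771, 19310 and 10950 CPM in the mutant. Ctrb1 fell (log2 fold change -4.58 ± 1.01 with an edgeR adjusted p = 0.022). Sycn, syncollin of zymogen granules, fell from 25170, 10280 and 31500 CPM to 556, 913 and 606 CPM (log2 fold change -5.01 ± 1.06 with an edgeR adjusted p = 0.0184). Clps, colipase, the cofactor of pancreatic lipase, fell from 12450, 6111 and 17910 CPM to 437, 639.6 and 496 CPM (log2 fold change -4.54 ± 0.83 with an edgeR adjusted p = 0.0104). Each was lowest in replicate 2 within wild type, and all wild-type values lay above all mutant values. The trypsin-family genes Prss3 (83.7, 19.03 and 519 CPM in wild type and 3.47, 4.09 and 3.7 CPM in the mutant) and Gm5771 (31.5, 7.81 and 450.5 CPM in wild type and 0.55, 0.85 and 0.678 CPM in the mutant) fell with errors of 1.44 and 2.02 on the log2 scale, and their wild-type values were widely spread. With the acinar share as a covariate the value for Prss3 turned to 0.23. Reads shared by members of that family were not counted, so their values carry added uncertainty. Aqp12, a water channel of acinar cells, fell (log2 fold change -4.50 ± 0.65 with an edgeR adjusted p = 0.00333). The factors that run the acinar programme were lower too. Ptf1a was at 8.86, 4.4 and 7.04 CPM in wild type and 0.423, 0.202 and 0.209 CPM in the mutant. Ptf1a fell (log2 fold change -4.56 ± 0.53 with an edgeR adjusted p = 7.31e-06). Rbpjl was at 196, 97.2 and 168 CPM in wild type and 10.1, 12.9 and 11.1 CPM in the mutant. Rbpjl fell (log2 fold change -3.76 ± 0.72 with an edgeR adjusted p = 0.0127), and 5 of 6 such factors fell in all (median log2 fold change -2.82). With the acinar share as a covariate, the median of the acinar markers was -0.10, against -0.08 for all genes, and among the acinar factors 0 (0) rose and 0 (0) fell.

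**Figure D4:**
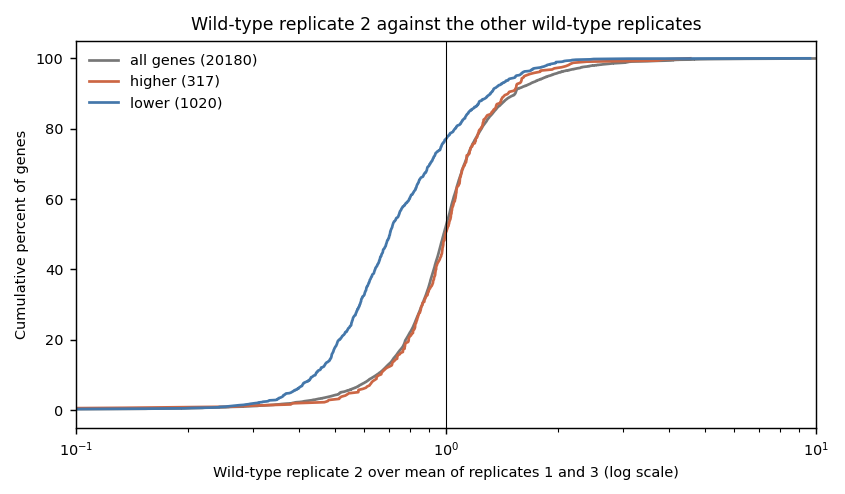
Share of genes (vertical axis, cumulative, percent) with a given ratio of wild-type replicate 2 to the mean of wild-type replicates 1 and 3 (horizontal axis, log scale) for the 317 higher, the 1020 lower and all 20180 genes tested. The curve of the lower genes lies to the left, and 47.5% of them had replicate 2 below 0.8 of both other replicates, against 10.4% of the higher genes.

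Lower genes without that pattern, beyond those above, included enzymes and mitochondrial and neuronal genes of beta cells. Cox6a2, a subunit of cytochrome oxidase made in muscle and a few other cell types, was at 67.1, 123 and 112 CPM in wild type and 9.52, 9.92 and 10.4 CPM in the mutant. Cox6a2 fell (log2 fold change -3.34 ± 0.22 with an edgeR adjusted p = 3.25e-09), the largest change among 40 subunits of respiratory complexes II to V. Ddc, aromatic amino acid decarboxylase, which makes dopamine and serotonin, was at 114, 144 and 142 CPM in wild type and 38.8, 44.4 and 40.04 CPM in the mutant. Ddc fell (log2 fold change -1.70 ± 0.14 with an edgeR adjusted p = 5.82e-08). Th, tyrosine hydroxylase, the first enzyme of dopamine synthesis, was at 13.9, 19.9 and 42.1 CPM in wild type and 2.67, 2.23 and 2.14 CPM in the mutant. Th fell (log2 fold change -3.42 ± 0.39 with an edgeR adjusted p = 3.81e-05), and it was named here after its values were seen. None of the 3 genes overlapped between the groups, and wild-type replicate 2 was not the lowest of its group for any of them. Nnat, the imprinted gene neuronatin, which acts in insulin processing, was at 47.9, 24.1 and 25.6 CPM in wild type and 9.47, 9.96 and 10.2 CPM in the mutant. Nnat fell (log2 fold change -1.72 ± 0.22 with an edgeR adjusted p = 2.1e-05). Gm14950, annotated as a processed transcript on the X chromosome, fell from 24.4, 19.4 and 12.3 CPM to 0.381, 0.405 and 0.209 CPM (log2 fold change -5.76 ± 0.43 with an edgeR adjusted p = 1.11e-08). With the acinar share as a covariate, Slc2a2, Trpm5, Ins1, Ucn3, Cox6a2, Ddc, Th, Kcnk16, Rab3d, Prlr, Gipr, Nnat and Gm14950 were all still lower past both thresholds.

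Noncoding RNAs were among the largest gains. The small nuclear RNA 7SK, which holds the elongation factor P-TEFb inactive, is annotated at 42 tested places, most of them near 0, of which 4 were higher past both thresholds. The 2 copies with the most counts lie on chromosome 9. The copy at 120700583 to 120700903 was at 17.4, 2.63 and 21.5 CPM in wild type and 114, 137 and 134 CPM in the mutant. It rose (log2 fold change 3.23 ± 0.73 with an edgeR adjusted p = 0.0242), and the copy at 78023110 to 78023440 was at 79.3, 33.2 and 95.2 CPM in wild type and 229.7, 243 and 276 CPM in the mutant. This copy rose (log2 fold change 1.85 ± 0.50 with an edgeR adjusted p = 0.0446). In both, wild-type replicate 2 was the lowest library, and reads shared between copies were not counted. The second copy no longer passed with pan-endocrine scaling (1.63, edgeR adjusted p = 0.0725), and the first no longer passed with the acinar share as a covariate (4.72, edgeR adjusted p = 0.128). Hexim1, the protein that works with 7SK to hold P-TEFb, was at 25.1, 27.98 and 34.9 CPM in wild type and 61.97, 79.6 and 77.7 CPM in the mutant. Hexim1 rose (log2 fold change 1.32 ± 0.15 with an edgeR adjusted p = 6.64e-06). Its groups stood apart, and it was still higher with the acinar share as a covariate (1.22, edgeR adjusted p = 0.0198). Ell2, an elongation factor, was at 135, 106 and 141 CPM in wild type and 53.4, 61.5 and 57.8 CPM in the mutant. Ell2 fell (log2 fold change -1.15 ± 0.14 with an edgeR adjusted p = 1.09e-05). Wild-type replicate 2 was the lowest of its group for Ell2. Of 19 genes of elongation control 5 rose and 1 fell, and 1 (4) rose and 0 (1) fell under the acinar covariate.

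Histone transcripts rose in part. Hist1h2be, a histone H2B gene (chromosome 13, 23675611 to 23712993, minus strand), was at 2.89, 3.48 and 3.25 CPM in wild type and 28.9, 28.3 and 26.4 CPM in the mutant. Hist1h2be rose (log2 fold change 3.11 ± 0.24 with an edgeR adjusted p = 1.35e-08), and Gm11398, annotated as a processed transcript, which lies inside the same interval and on the same strand, was at 5.69, 6.82 and 6.59 CPM in wild type and 42.5, 41.8 and 34.9 CPM in the mutant. Gm11398 rose (log2 fold change 2.64 ± 0.18 with an edgeR adjusted p = 3.25e-09). The 3 mutant libraries of each gene were close together, and all exceeded the wild type. Overlapping transcripts of this cluster may share reads, and the strand setting of the counting is not given in the sources used here. Of 32 tested genes whose symbol begins with Hist, a family chosen after the values were seen, 9 were higher past both thresholds and 11 rose by edgeR, against 1.57% and 8.52% of all genes. On the lower side 0 of the 32 passed the edgeR adjusted p, with 2 at an unadjusted p below 0.05 and 1 that fell by DESeq2. Others with gains were Spc25, a kinetochore subunit, at 72.4, 61.9 and 89.8 CPM in wild type and 236, 293 and 286 CPM in the mutant (log2 fold change 1.86 ± 0.18 with an edgeR adjusted p = 1.47e-06), Efcab2 at 4.57, 4.76 and 4.06 CPM in wild type and 18.6, 16.03 and 13.6 CPM in the mutant (log2 fold change 1.85 ± 0.21 with an edgeR adjusted p = 6.37e-06) and 1700029J07Rik at 8.12, 9.09 and 9.21 CPM in wild type and 33.2, 29.7 and 31.6 CPM in the mutant (log2 fold change 1.84 ± 0.19 with an edgeR adjusted p = 1.62e-06). Of 32 cell cycle genes 4 fell (12.5%, against 7.85% of all genes, median log2 fold change -0.60), among them the topoisomerase Top2a (-1.44 ± 0.42) and Cenpf (-1.59 ± 0.44), and with library totals alone 6 rose and 2 fell. The acinar covariate gave 0 (2) that rose and 0 (2) that fell. Mki67, the proliferation marker, was at 8.12, 17.2 and 17.5 CPM in wild type and 5.67, 3.93 and 4.59 CPM in the mutant (-1.60 ± 0.52, edgeR adjusted p = 0.0679). The processed transcripts Gm16124 (log2 fold change 2.65 ± 0.24 with an edgeR adjusted p = 3.63e-07) and Gm15496 (log2 fold change 2.08 ± 0.20 with an edgeR adjusted p = 7.23e-07) rose as well.

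**Figure D5:**
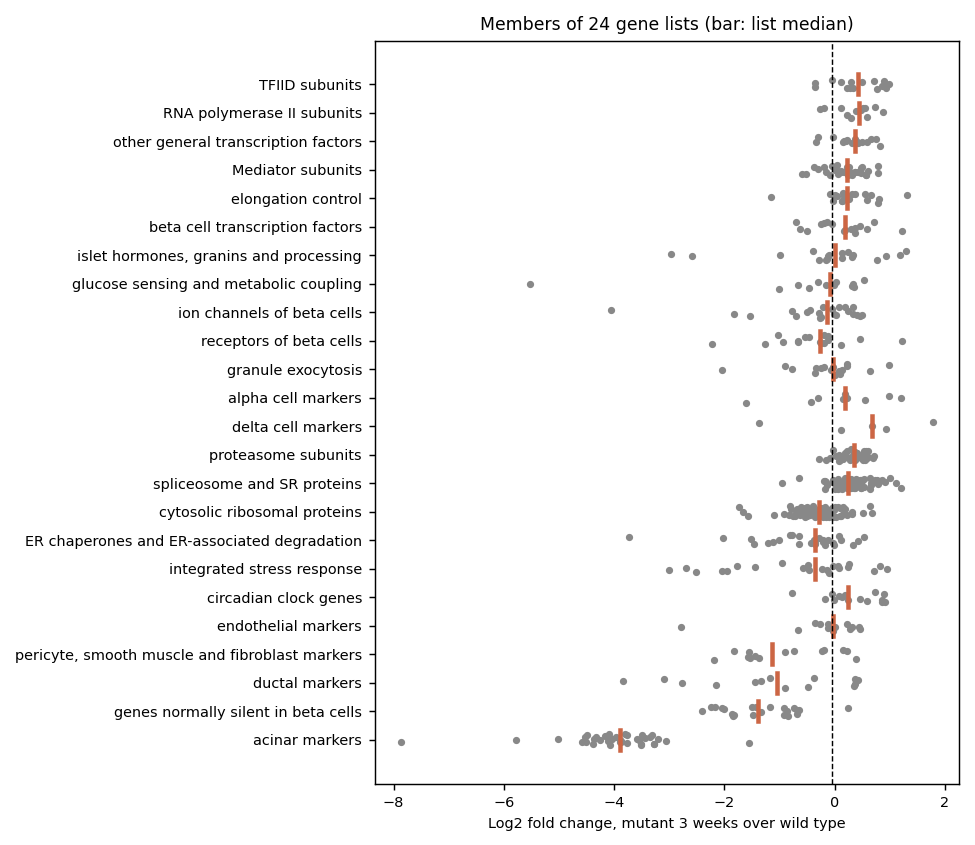
Log2 fold change of each tested member (points) of 24 gene lists, mutant islets at 3 weeks over wild type, with the list median as a bar and the median of all genes, -0.05, as a dashed line. Medians run from -3.89 for acinar markers and -1.39 for genes normally silent in beta cells to 0.42 for TFIID subunits and 0.68 for delta cell markers.

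Some genes of the transcription machinery rose. Of 16 TFIID subunits 7 rose and 9 did not pass the test (median log2 fold change 0.42), and 5 rose with pan-endocrine scaling, under which Taf12 stood at 0.51 (edgeR adjusted p = 0.0605). Taf6, a histone-fold subunit, was at 27.8, 29.6 and 26.6 CPM in wild type and 46.99, 58.9 and 51.8 CPM in the mutant. Taf6 rose (log2 fold change 0.91 ± 0.14 with an edgeR adjusted p = 0.000171). Taf5, a scaffold subunit, was at 9.79, 8.1 and 9.76 CPM in wild type and 17.2, 15.3 and 19.97 CPM in the mutant. Taf5 rose (log2 fold change 0.93 ± 0.18 with an edgeR adjusted p = 0.001), and Taf3 (0.78 ± 0.16) and Taf13 (0.92 ± 0.19) rose. For Taf5 and Taf6 the groups did not overlap. Of 17 other general transcription factors 5 rose (median 0.37), or 2 with 1 that fell under pan-endocrine scaling, including Gtf2e2 (log2 fold change 0.82 ± 0.18 with an edgeR adjusted p = 0.00363) and Gtf2h5 (0.75 ± 0.17). Of 12 subunits of RNA polymerase II 4 rose (median 0.44), or 2 with pan-endocrine scaling, and the largest subunit, Polr2a, was at 121, 129 and 119 CPM in wild type and 241, 231 and 207 CPM in the mutant. Polr2a rose (log2 fold change 0.88 ± 0.15 with an edgeR adjusted p = 0.000309). Of 31 Mediator subunits 3 rose (9.68%, against 8.52% of all genes) and 1 fell, and with pan-endocrine scaling 0 (1) rose and 2 (3) fell. Of 36 chromatin remodeller genes 4 rose (11.1%, likewise near the share of all genes), among them Rbbp7 (0.73 ± 0.14) and Smarca5 (0.73 ± 0.15), and 1 rose and 3 fell with pan-endocrine scaling. Of 53 histone and DNA modifying enzymes 10 rose and 1 fell (3 and 4 with pan-endocrine scaling), and Hdac1, a histone deacetylase, was at 11.01, 10.3 and 10.03 CPM in wild type and 20.3, 22.03 and 19.03 CPM in the mutant (log2 fold change 0.97 ± 0.17 with an edgeR adjusted p = 0.000391). Under the acinar covariate 2 (6) rose and 0 (0) fell of the TFIID subunits, 2 (6) rose and 0 (0) fell of the other general factors and 3 (3) rose and 0 (0) fell of the polymerase subunits. By the same fit 1 (6) rose and 1 (1) fell of the Mediator subunits, 0 (4) rose and 2 (6) fell of the remodellers and 0 (4) rose and 0 (6) fell of the modifying enzymes.

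Components of RNA processing and of protein turnover rose in numbers that depended on the scaling. Of 68 spliceosome and SR protein genes 18 rose and 2 fell (median log2 fold change 0.25), or 6 and 2 with pan-endocrine scaling and 59 and 0 with library totals alone, with Srrm1 at 144, 152 and 134 CPM in wild type and 261, 248 and 269.8 CPM in the mutant (log2 fold change 0.86 ± 0.14 with an edgeR adjusted p = 0.000186) and Srsf2 at 7.37, 8.52 and 9.21 CPM in wild type and 14.8, 20.04 and 19.6 CPM in the mutant (log2 fold change 1.11 ± 0.22 with an edgeR adjusted p = 0.00165) both above wild type in every mutant library. Of 34 proteasome subunits 9 rose (median 0.36), such as Psma2 (0.72 ± 0.19) and Psmd2 (0.61 ± 0.13), but with pan-endocrine scaling Psma2 stood at 0.51 (edgeR adjusted p = 0.0548) and Psmd2 at 0.40 (edgeR adjusted p = 0.0916). On that scaling 0 (4) rose and 0 (1) fell among the proteasome subunits, and 31 rose with library totals alone. Of 79 cytosolic ribosomal proteins 12 fell (median -0.28), among them Rps16 at 12.3, 9.02 and 15.9 CPM in wild type and 3.43, 4.62 and 4.38 CPM in the mutant (log2 fold change -1.58 ± 0.29 with an edgeR adjusted p = 0.000779), and with library totals alone 13 rose and 3 fell. For Rps16, wild-type replicate 2 was the lowest of its group. Of 32 lysosomal genes 9 rose and 1 fell, or 4 and 2 with pan-endocrine scaling and 22 and 0 with library totals alone, among them Npc2, a cholesterol-binding protein of lysosomes, at 47.02, 53.05 and 65.9 CPM in wild type and 105, 114 and 114 CPM in the mutant (log2 fold change 1.0 ± 0.14 with an edgeR adjusted p = 5.47e-05), and Atp6ap2 (0.98 ± 0.14) and Atp6ap1 (0.72 ± 0.11), accessory subunits of the proton pump. Under the acinar covariate 3 (16) rose and 1 (3) fell of the spliceosome genes, 6 (22) rose and 0 (0) fell of the proteasome subunits, 4 (20) rose and 0 (0) fell of the ribosomal proteins and 4 (12) rose and 0 (1) fell of the lysosomal genes.

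Nuclear genes of the respiratory chain changed in both directions. Of complex I subunits 16.2% rose and 2.7% fell, and of complexes II to V 12.5% and 15%, against 8.52% and 7.85% of all genes. Of 37 complex I subunits 6 rose and 1 fell (median log2 fold change 0.19), with Ndufb6 at 4.85, 4.33 and 8.13 CPM in wild type and 11.8, 11.8 and 11.6 CPM in the mutant (log2 fold change 1.03 ± 0.24 with an edgeR adjusted p = 0.00572), and 3 rose and 3 fell with pan-endocrine scaling. Of 40 subunits of complexes II to V 5 rose and 6 fell, with Sdha at 102, 104 and 107 CPM in wild type and 182, 196 and 175 CPM in the mutant (log2 fold change 0.82 ± 0.12 with an edgeR adjusted p = 8.97e-05) against Cox6a2 and Cox5a (-1.07 ± 0.22). Mitochondrially encoded mRNAs took 1.165% to 1.612% of wild-type counts and 3.279% to 3.62% of mutant counts, whereas on the TMM scale 0 of the 8 tested passed the edgeR adjusted p (2 at an unadjusted p below 0.05, and 0 by DESeq2). The highest, mt-Nd1, stood at 0.95 ± 0.40 (edgeR adjusted p = 0.149). With library totals alone 5 of the 8 rose, and 5 rose with only the 2 groups compared. Under the acinar covariate 5 (5) of the 8 rose and 0 (0) fell, and with pan-endocrine scaling 0 (0) rose and 0 (0) fell. The acinar covariate gave 8 (21) that rose and 0 (0) that fell for complex I and 7 (19) that rose and 1 (1) that fell for complexes II to V.

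Metabolic genes changed in both directions. Acly, ATP citrate lyase, which makes cytosolic acetyl-CoA, was at 434, 488 and 436 CPM in wild type and 976, 921 and 982 CPM in the mutant. Acly rose (log2 fold change 1.08 ± 0.13 with an edgeR adjusted p = 1.1e-05), while of the other 14 lipogenic genes tested 6 fell. Scd1, a fatty acid desaturase, was at 15.5, 10.7 and 17.2 CPM in wild type and 2.58, 2.06 and 2.35 CPM in the mutant. Scd1 fell (log2 fold change -2.63 ± 0.33 with an edgeR adjusted p = 2.4e-05), and Acacb, a carboxylase that controls fat oxidation, fell from 24.6, 13.6 and 22.5 CPM to 4.99, 3.48 and 2.87 CPM (log2 fold change -2.41 ± 0.28 with an edgeR adjusted p = 7.97e-06). For both, wild-type replicate 2 was the lowest of its group. Scd2, another desaturase, fell (log2 fold change -1.02 ± 0.17 with an edgeR adjusted p = 0.000378). With library totals alone 4 lipogenic genes rose and 2 fell, and under the acinar covariate 1 (1) rose and 3 (5) fell. Of 15 glycolytic genes, Tpi1 (0.84 ± 0.18) and Pkm2 (0.50 ± 0.13) rose, and of 23 cholesterol synthesis genes 3 rose, and with pan-endocrine scaling 1 rose and 3 fell. The shares that rose in the main fit were 13.3% and 13%, against 8.52% of all genes. The covariate gave 1 (3) that rose and 0 (1) that fell for glycolysis and 0 (4) that rose and 0 (3) that fell for cholesterol synthesis. Mt1, a metallothionein that binds zinc, was at 80.97, 58.9 and 145 CPM in wild type and 268, 223 and 259.7 CPM in the mutant. Mt1 rose (log2 fold change 1.40 ± 0.28 with an edgeR adjusted p = 0.00751), and the zinc importer Slc39a8 fell (log2 fold change -2.39 ± 0.30 with an edgeR adjusted p = 1.75e-05).

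Stress pathways gave mixed counts. Ddit3, the stress-response factor CHOP, was at 10.4, 12.4 and 10.3 CPM in wild type and 21.7, 20.97 and 21.7 CPM in the mutant. Ddit3 rose (log2 fold change 0.95 ± 0.15 with an edgeR adjusted p = 0.000168), but 7 of 22 genes of the integrated stress response fell and 3 rose, with 8 rising and 6 falling on library totals alone. Psat1 and Phgdh, enzymes of serine synthesis, fell (-1.95 ± 0.19 and -2.04 ± 0.33), with wild-type replicate 2 the lowest of its group in both. Of 27 ER chaperone and degradation genes 12 fell and 2 rose (median log2 fold change -0.36), including Sdf2l1 at 94.97, 80.1 and 100.3 CPM in wild type and 28.2, 39.9 and 28.6 CPM in the mutant (log2 fold change -1.51 ± 0.16 with an edgeR adjusted p = 3.35e-06) and Dnajb11 (log2 fold change -1.21 ± 0.16 with an edgeR adjusted p = 3.64e-05), and with library totals alone 4 fell and 7 rose. Hspa5, the ER chaperone BiP, was at 1447, 1135 and 1431 CPM in wild type and 1009, 1106 and 1017 CPM in the mutant (-0.36 ± 0.15, edgeR adjusted p = 0.1). The inducible heat shock genes Hspa1a (13.2, 11.9 and 13.6 CPM in wild type and 3.34, 3.85 and 3.6 CPM in the mutant, log2 fold change -1.84 ± 0.26 with an edgeR adjusted p = 5.47e-05) and Hspa1b (log2 fold change -2.56 ± 0.31 with an edgeR adjusted p = 1.15e-05) fell, while Hspa4 rose (0.64 ± 0.12), so that 5 of 15 heat shock genes fell and 2 rose, against 3 and 6 with library totals alone. Hspa1a and Hspa1b are near copies, and reads shared by them were not counted. Cdkn1a, the cell cycle inhibitor p21, was at 39.7, 44.1 and 56 CPM in wild type and 116, 183 and 119.8 CPM in the mutant. Cdkn1a rose (log2 fold change 1.58 ± 0.18 with an edgeR adjusted p = 8.47e-06). All mutant values of Cdkn1a and Ddit3 exceeded all wild-type values. Of 17 p53 targets 3 rose and 2 fell, with Plk2 (-1.99 ± 0.26) and Perp (-1.57 ± 0.37) the pair that fell. Of 19 NRF2 antioxidant genes 4 rose and 4 fell, Gclc, of glutathione synthesis, with 0.65 ± 0.15 and catalase (Cat) with -1.67 ± 0.23, but 10 rose and 2 fell with library totals alone and 7 fell with pan-endocrine scaling. Under the acinar covariate 1 (1) rose and 2 (7) fell of the integrated stress response, 0 (1) rose and 3 (7) fell of the ER genes and 0 (5) rose and 0 (1) fell of the heat shock genes. By the same fit 2 (2) rose and 0 (1) fell of the p53 targets and 2 (4) rose and 0 (3) fell of the NRF2 genes.

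Immediate early genes, which respond to signals within minutes, were lower in part: 6 of 16 fell and 1 rose, Fos at 19.6, 23.9 and 40.3 CPM in wild type and 14.8, 15.5 and 14.03 CPM in the mutant (log2 fold change -0.92 ± 0.23 with an edgeR adjusted p = 0.00886, or -0.54 with edgeR adjusted p = 0.123 without wild-type replicate 3) and Jun at 40.95, 26.5 and 42.99 CPM in wild type and 13.9, 15.1 and 14.2 CPM in the mutant (log2 fold change -1.35 ± 0.23 with an edgeR adjusted p = 0.000486), although with library totals alone 3 rose and 2 fell. For Jun, wild-type replicate 2 was the lowest of its group. Of 15 clock genes 6 rose and 1 fell. The acinar covariate gave 0 (0) that rose and 0 (4) that fell for the immediate early genes and 0 (3) that rose and 0 (0) that fell for the clock genes. Nr1d1, the repressor REV-ERB alpha, was at 62.1, 60.9 and 74.3 CPM in wild type and 129.5, 112 and 133 CPM in the mutant. Nr1d1 rose (log2 fold change 0.92 ± 0.14 with an edgeR adjusted p = 0.000122), and Arntl (BMAL1), which it represses, was at 13.1, 10.9 and 12.6 CPM in wild type and 6.01, 7.29 and 8.03 CPM in the mutant. Arntl fell (log2 fold change -0.78 ± 0.22 with an edgeR adjusted p = 0.0196). Per3 rose as well (log2 fold change 0.85 ± 0.16 with an edgeR adjusted p = 0.000891). The groups of Nr1d1, Arntl and Per3 did not overlap, and the hour of collection is not given in the sources used here.

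Most genes in the lists of inflammation did not pass the test. Of the chemokine genes 15.8% fell and 0% rose, and of the interferon response genes 12.5% fell and 4.17% rose. Of the genes of MHC class I presentation 20% rose and 10% fell, and of the Reg genes 33.3% fell and 0% rose. Of all genes tested 7.85% fell and 8.52% rose. Reg3b, a secreted lectin of stressed pancreas, was at 33.3, 7.17 and 148 CPM in wild type and 23.1, 25.5 and 24.9 CPM in the mutant (-1.36 ± 0.88, edgeR adjusted p = 0.36), Reg3a at 2.33, 0.852 and 15.3 CPM in wild type and 3.89, 2.83 and 3.7 CPM in the mutant (-0.79 ± 0.87) and Reg3g at 2.33, 0.781 and 1.63 CPM in wild type and 2.88, 2.83 and 2.71 CPM in the mutant (0.87 ± 0.34, edgeR adjusted p = 0.0818). The wild-type spread of Reg3b, with replicate 3 highest, covered the mutant values. Reg1 and Reg3d, both highest in wild-type replicates 1 and 3, fell (log2 fold change -3.88 ± 1.03 with an edgeR adjusted p = 0.0436 and -3.43 ± 0.67), but with the acinar share as a covariate their values turned to 0.73 and 0.88. Of 24 interferon response genes 3 fell and 1 rose, with Bst2 at 9.33, 4.19 and 7.59 CPM in wild type and 2.12, 1.94 and 1.46 CPM in the mutant (log2 fold change -1.92 ± 0.34 with an edgeR adjusted p = 0.000571), and of 10 genes of MHC class I presentation H2-K1 (log2 fold change 0.73 ± 0.12 with an edgeR adjusted p = 0.000379) and H2-T23 rose and Psmb10 fell (-1.96 ± 0.37). For Bst2, wild-type replicate 2 was the lowest of its group. With library totals alone 6 interferon response genes rose and 1 fell. Of 19 chemokine genes 3 fell, Cxcl12, Ccl5 and Cxcl16 (-1.01 ± 0.30). Under the acinar covariate 0 (2) rose and 0 (2) fell of the interferon response genes and 0 (3) rose and 0 (0) fell of the class I genes. That fit gave 1 (2) that rose and 1 (5) that fell of the chemokine genes. It gave 1 (1) that rose and 0 (0) that fell of 6 Reg genes. Of 8 acute phase and complement genes 2 (3) rose and 0 (0) fell under the covariate, while 1 fell and 0 rose in the main fit.

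Markers of other cell types in the preparation were lower in part. Shares that fell were 50% for ductal and 50% for pericyte, smooth muscle and fibroblast markers. They were 15.4% for endothelial and 13.6% for leukocyte markers, against 7.85% of all genes. Of 14 ductal markers 7 fell and 1 rose (median log2 fold change -1.04), among them Muc1 at 184, 58.5 and 137 CPM in wild type and 8.67, 8.62 and 9.18 CPM in the mutant (log2 fold change -3.84 ± 0.63 with an edgeR adjusted p = 0.00646) and Krt19 (log2 fold change -2.15 ± 0.58 with an edgeR adjusted p = 0.0282, or 0.34 with the acinar share as a covariate), with wild-type replicate 2 lowest in both. Of 14 pericyte, smooth muscle and fibroblast markers 7 fell (median -1.14), or 4 with 2 that rose on library totals alone, such as Acta2, smooth muscle actin, at 21.2, 27.8 and 56.5 CPM in wild type and 6.18, 9.47 and 7.46 CPM in the mutant (log2 fold change -2.19 ± 0.40 with an edgeR adjusted p = 0.00415) and Pdgfra (log2 fold change -1.82 ± 0.39 with an edgeR adjusted p = 0.00303). Of 13 endothelial markers 2 fell, Vwf (log2 fold change -2.79 ± 0.45 with an edgeR adjusted p = 0.00162) and Pecam1 (log2 fold change -0.67 ± 0.18 with an edgeR adjusted p = 0.0123), while Kdr, the VEGF receptor of vessels, was at 56.1, 61.1 and 68.01 CPM in wild type and 81.2, 91.1 and 78.8 CPM in the mutant (0.44 ± 0.17, edgeR adjusted p = 0.0762), and with library totals alone 6 rose. Of 22 leukocyte markers 3 fell, among them C1qa of macrophages (log2 fold change -2.53 ± 0.39 with an edgeR adjusted p = 0.000247), and Cd68 was at 4.11, 4.54 and 3.61 CPM in wild type and 4.91, 3.6 and 6.73 CPM in the mutant (0.30 ± 0.31). Under the acinar covariate 0 (2) rose and 0 (4) fell of the ductal, 0 (0) rose and 0 (2) fell of the pericyte, smooth muscle and fibroblast, 0 (0) rose and 0 (5) fell of the endothelial and 1 (1) rose and 1 (5) fell of the leukocyte markers. The summed level ranged from 359.4 to 569.3 CPM in wild type and from 280.6 to 290 CPM in the mutant for ductal markers, from 252.5 to 423.2 and from 229.5 to 246.6 CPM for pericyte, smooth muscle and fibroblast markers, from 316.5 to 437.5 and from 371.3 to 374.9 CPM for endothelial markers, and from 227.2 to 301.2 and from 213.2 to 229.8 CPM for leukocyte markers. The part of these cell types in the results on islet genes was not tested. Of 27 collagen genes 9 fell (median -0.74), Col7a1 (-2.33 ± 0.30) and Col6a6 (log2 fold change -1.73 ± 0.18 with an edgeR adjusted p = 1.67e-06) among them, and of 31 integrins and laminins 6 fell (median -0.47), or 2 with 6 rising on library totals alone, among them Itgb4 (-2.41 ± 0.33) and Lamb3 (-3.55 ± 0.50). Of 24 islet cell contact genes 7 fell and 5 rose, or 1 and 11 with library totals alone. By the covariate fit 0 (0) rose and 1 (10) fell of the collagens, 0 (2) rose and 1 (7) fell of the integrins and laminins and 0 (2) rose and 1 (7) fell of the contact genes. Gjd2, the gap junction connexin that couples beta cells, was at 78.1, 96.7 and 81.7 CPM in wild type and 53.5, 55.6 and 58.6 CPM in the mutant. Gjd2 fell (log2 fold change -0.61 ± 0.15 with an edgeR adjusted p = 0.00638), and Epcam, an epithelial adhesion protein, rose (log2 fold change 0.61 ± 0.13 with an edgeR adjusted p = 0.0022).

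A comparison with mutant islets at 1 week asked whether the change at 3 weeks differed from that seen earlier, since the wild type drops out of that difference. Between 3 weeks and 1 week 35 of 20180 genes were higher (0.173%) and 261 lower (1.29%) at the same edgeR thresholds. At the adjusted p alone the shares were 0.956% higher and 2.26% lower. Acinar RNA differed here too, at 7.353, 26.13 and 19.15% of the counts in the mutant libraries of 1 week. Ins1 was at 47640, 18550 and 36430 CPM at 1 week and was lower at 3 weeks (-1.5 ± 0.26, edgeR adjusted p = 0.0031). Gcg was at 170100, 193500 and 181900 CPM at 1 week and was also lower at 3 weeks (-0.96 ± 0.26, edgeR adjusted p = 0.0425), but the difference for Gcg was lost when any 1 of the 6 mutant libraries was left out (-0.87 to -1.04, edgeR adjusted p = 0.0796 to 0.199). Among the Reg genes, Reg3g was at 23.4, 35.3 and 38.5 CPM and was lower at 3 weeks (-3.52 ± 0.29, edgeR adjusted p = 5.44e-07), and Reg3a was at 106, 160.5 and 200.3 CPM (-5.49 ± 0.86, edgeR adjusted p = 0.0215). Reg3b, at 434, 574 and 596 CPM at 1 week, did not pass (-4.45 ± 0.97, edgeR adjusted p = 0.0605). For Slc2a2 (33.2, 7.25 and 13.2 CPM at 1 week), Trpm5 (9.43, 5.45 and 6.03 CPM) and Ins2 the difference between the times did not pass the test (-0.81 ± 0.52, -0.04 ± 0.21 and -0.23 ± 0.26). Hist1h2be (1.12 ± 0.21), Insm1 (0.94 ± 0.20) and Nr1d1 (1.06 ± 0.14) were higher at 3 weeks than at 1 week (edgeR adjusted p = 0.00441, 0.0168 and 0.000287), and Kcnk16 (-1.28 ± 0.20), Rab3d (-0.93 ± 0.14) and Ddc (-1.03 ± 0.14) were lower (edgeR adjusted p = 0.00155, 0.00079 and 0.000292). Insm1 and Reg3a each missed the threshold when any of 4 of the 6 mutant libraries was left out (edgeR adjusted p = 0.0576 to 0.0944 and 0.0683 to 0.11). With the acinar share as a covariate Gcg, Reg3a, Insm1 and Kcnk16 no longer passed (edgeR adjusted p = 0.576, 0.284, 0.502 and 0.0962), and with library totals alone Gcg, Rab3d and Ddc did not (edgeR adjusted p = 0.427, 0.191 and 0.0999).

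The promoters of the called genes were described over a window from 250 bases before to 50 bases after the annotated start, on NCBIM37. TATAAA on the gene's own strand, beginning 40 to 20 bases before the start, was present in 3.83% of 1018 windows of lower genes and in 1.27% of 314 windows of higher genes, against 1.46% of the 20103 windows of all genes tested. Among the lower genes the share was 3.93% where wild-type replicate 2 was low and 3.75% where it was not. CATCTG or its reverse complement was present in 16.0% of lower, 13.4% of higher and 14.1% of all windows, and TGCTGA, the core bound by Maf factors, or its reverse complement in 18.1%, 14.0% and 16.9%. GGGCGG, the GC box, or its reverse complement was present in 47.9% of lower, 55.4% of higher and 49.8% of all windows. These matches describe letters and are not measured binding sites.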

How the data were processed

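RNA-seq was made by the authors from 3 pools of islets per group, with linear amplification of the RNA. Per the labels and the study's methods, reads were trimmed (cutadapt 1.10), cleared of ribosomal RNA (Bowtie2 2.2.8), aligned to mm9 (STAR 2.5.3a) and counted per Ensembl gene by HTSeq on uniquely aligned reads, and the authors deposited these raw counts, which were used here. The same deposited table holds a signal per gene, the authors' normalised counts divided by median transcript length, which entered no test. Its columns of fold changes and p-values, and 6 further lists of changed genes, hold the authors' own comparisons and were not used.

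Counts of 11 libraries in 4 groups (1 of the series' 12 samples, at 5 weeks, was not analysed here) were fitted in a single model with edgeR 4.0.16 in R 4.3.3: filterByExpr, TMM factors, robust dispersions and the quasi-likelihood F test, with Benjamini-Hochberg adjustment over the 20180 genes tested. Contrasts were mutant 3 weeks against wild type and against mutant 1 week. Total counts per library were 13865518 to 20109433 in the groups compared, and values of a few counts are imprecise. A floor of 3 counts over a group stands for no count: against it Ddx3y was at least 953-fold, Eif2s3y 944-fold, Kdm5d 821-fold and Uty 725-fold lower in the mutant. Promoters came from the NCBIM37 sequence with GENCODE M1 gene models, which held 34484 of the 34820 gene identifiers. The fit was tested on simulated counts with known fold changes and the same spread for all genes. These held no difference in acinar share between the groups, so they do not show how the fit deals with it. Alternatives were DESeq2 1.42.0, library totals without TMM, scaling by 12 pan-endocrine genes, acinar markers removed first, no filter or a stricter filter on low counts (50 counts in 2 libraries), only the groups compared, a replicate block, the acinar share as covariate, and each replicate left out. Named genes were genes central to the study, the 12 largest changes in each direction with a mean of at least 10 CPM and no overlap, and the first 2 members and up to 4 with the smallest adjusted p of each list, of which a few are not reported here. The comparison, members and lists were chosen with earlier results of these data known.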

Additional observations from a re-analysis of the deposited data

Results flagged for a closer look

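For 21 of the genes named above, the change from wild type at 3 weeks differed from that at 1 week, by the edgeR contrast of the mutant times in which the wild type drops out (adjusted p below 0.05 and a log2 difference beyond 1). The values are log2 differences, 3 weeks minus 1 week, and both times share the same wild type. The higher genes were Hist1h2be (1.12) and Nr1d1 (1.06). Among beta cell genes, Ins1 stood at -1.5, Kcnk16 at -1.28, Ddc at -1.03 and Nnat at -1.04. Slc38a5, listed with the alpha cell genes, stood at -1.08, and its wild-type replicate 2 was low, as for acinar transcripts. The Reg genes had the largest drops, Reg3a with -5.49 and Reg3g with -3.52. Acinar genes followed with Aqp12 at -3.18 and Ptf1a at -2.72, beside acinar shares of 7.353%, 26.13% and 19.15% at 1 week and 3.669%, 4.959% and 3.794% at 3 weeks. With the acinar share as a covariate, 5 of all genes were higher and 19 lower between the times, against 35 and 261 without it. Of the genes flagged here, at least Reg3a and Kcnk16 did not pass in that fit. Of single genes of stroma, ducts and macrophages, Pdgfra stood at -1.92, Sox9 at -1.43, C1qa at -1.52 and Cxcl12 at -1.10. The summed ductal markers overlapped between the times (275.9 to 400.8 CPM at 1 week and 280.6 to 290 CPM at 3 weeks). The sums did not overlap for pericyte, smooth muscle and fibroblast markers (300.3 to 369 and 229.5 to 246.6 CPM). Nor did they for leukocyte markers (358.8 to 526.2 and 213.2 to 229.8 CPM). The remaining genes were Hspa1a (-1.74), Hspa1b (-1.59), Scd1 (-1.66), Slc39a8 (-1.73), Rps16 (-1.60) and Bst2 (-1.26). The adjusted p missed the threshold when at least 1 of the 6 mutant libraries was left out for Aqp12, Bst2, C1qa, Cxcl12, Hspa1b, Nnat, Pdgfra, Ptf1a, Reg3a, Scd1, Slc38a5 and Sox9 (edgeR adjusted p = 0.0511 to 0.188). Groups of 3 libraries were too small for a search for outlying samples.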

How the results depend on the processing

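Against wild type, past both thresholds, 317 genes were higher and 1020 lower, which became 3715 and 447 with library totals alone, 133 and 1492 with pan-endocrine scaling, 401 and 240 with the acinar share as a covariate and 480 and 952 without the filter. On the adjusted p alone, 1719 rose and 1584 fell, which became 7318 and 521, 521 and 2447, 445 and 262, and 2628 and 1461 in the same order, and 2820 and 2303 with only the groups compared. Between the mutant times, 35 were higher and 261 lower, which became 802 and 218 with library totals alone, 5 and 19 with the covariate, 101 and 402 without the filter and 58 and 463 with DESeq2. Leaving out 1 replicate gave 226 to 329 higher and 665 to 886 lower genes, 893 to 1435 that rose and 942 to 1295 that fell, and between the times 14 to 50 higher and 87 to 453 lower. The acinar difference of -41.25 points ranged from -36.42 to -48.55.

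Among log2 fold changes that passed the test in either fit, library totals alone changed the sign of Gjd2 (0.01), Mlxipl (0.03), Pecam1 (0.02), Slc25a1 (0.02) and Taf4a (0.65). That scaling moved the median of all genes from -0.05 to 0.61. The first 4 stayed below that median and Taf4a near it. The covariate changed the sign of Krt19 (0.34), Prss3 (0.23), Reg1 (0.73) and Reg3d (0.88), and the cause was not tested. Values that passed in neither fit changed sign too, as for Pdx1 with the covariate (-0.35) and Nkx6-1 with library totals (0.40). Leaving out 1 library cost 28 of the 139 named gene identifiers that rose or fell their call. The replicates whose removal did so are given with the edgeR adjusted p reached in brackets: 7SK, the copy at 120700583, without mutant 1, 2, 3 or wild type 1 (0.0559 to 0.0753), 7SK, the copy at 78023110, without any 1 library (0.0615 to 0.115), Abcc8 without mutant 1, 3 or wild type 1 (0.0561 to 0.0704), Aldh1a3 without wild type 3 (0.102), Arntl without mutant 1, 2 or wild type 1, 3 (0.0518 to 0.0924), Cenpf without mutant 2, 3 or wild type 2, 3 (0.0568 to 0.0979), Clps without mutant 3 (0.0519), Ctrb1 without mutant 1, 2, 3 or wild type 1, 3 (0.0538 to 0.0819), Cxcl16 without mutant 3 or wild type 1, 3 (0.059 to 0.132), Etv1 without mutant 1, 2, 3 or wild type 1, 2 (0.0778 to 0.194), Fos without wild type 3 (0.123), Gm5771 without mutant 1, 2, 3 or wild type 1, 3 (0.0557 to 0.127), H2-T23 without mutant 1, 2, 3 or wild type 1, 3 (0.0686 to 0.161), Krt19 without mutant 1, 2, 3 or wild type 1, 3 (0.0634 to 0.103), Mlxipl without mutant 1, 2, 3 or wild type 1 (0.0533 to 0.0884), Myc without mutant 2, 3 or wild type 1 (0.0511 to 0.0669), Pecam1 without mutant 1, 3 or wild type 3 (0.052 to 0.127), Pkm2 without mutant 2 or wild type 1 (0.0699 to 0.0728), Prss3 without mutant 1, 2, 3 or wild type 1, 3 (0.0598 to 0.119), Psma2 without wild type 1 (0.0716), Rbp4 without mutant 1, 2, 3 or wild type 1, 2 (0.0751 to 0.157), Rbpjl without mutant 1, 3 (0.0542 to 0.0578), Reg1 without mutant 1, 2, 3 or wild type 1, 3 (0.103 to 0.131), Reg3d without mutant 1, 2, 3 (0.0524 to 0.0617), Slc25a1 without mutant 1, 3 or wild type 3 (0.0536 to 0.0819), Sst without wild type 1 (0.0551), Sycn without mutant 1, 2, 3 or wild type 1 (0.0535 to 0.0799) and Top2a without mutant 1, 2, 3 or wild type 2, 3 (0.0508 to 0.127). The replicate numbers did not pair the samples (same-number correlations 0.094, -0.084 and -0.039), and a replicate block gave 297 higher and 912 lower genes, 1394 that rose and 1344 that fell, and 23 higher and 176 lower between the times.

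Acinar share, sex-linked expression and genotype run together over these 6 libraries. With 3 pools a group, genes of a few counts could not be resolved.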
